A study of Mus musculus with 34 samples.

Results

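The genes described here are the cadherins Cdh1, Cdh2 and Cdh3, the epithelial adhesion molecule Epcam, the intermediate filament gene Vim and the transcription factors Snai1, Snai2, Twist1, Zeb1 and Zeb2. These 10 genes were chosen by name, for their part in the switch between epithelial and mesenchymal states, from 48709 genes listed for control and triple-mutant cells. RNA was sequenced from mouse embryonic stem (ES) cells of the 129/Ola strain in 34 libraries. The study asked what ES cells do without the 3 MTA proteins, Mta1, Mta2 and Mta3, which are subunits of the chromatin remodelling complex NuRD.

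In the first set, 16 libraries, control and Mta123KO cells were each labelled either 2iL, for growth on gelatin in medium with 2 inhibitors and LIF, or 48h, for 48 hours in N2B27 medium lacking both, with 4 libraries a group. Read from the sample titles, each genotype was represented by a pair of lines, with 2 libraries of a line under each label. The study's list of cell lines gives the control as Mta1 +/∆ Mta3 flox/flox, so that control cells also lack an Mta1 allele, while for Mta123KO the Mta2 gene was targeted in cells without Mta1, after which Cre removed Mta3. The second set, 18 libraries, held Mta1_del/del, Mta2_KO and Mta3_del/del cells and the cells set against them, Mta1_flox/flox, Mta2_WT and Mta3_flox/flox. Each had 3 libraries, all labelled 2i+LIF. The Mta1 and Mta3 mutants were made from their parents with Cre, whereas the Mta2 mutant was derived as a line of its own. In the Mta2 comparison, loss of the gene and a difference between lines cannot be told apart. The same limit holds for Mta123KO against control. A figure legend of the study describes that control as a line derived together with the parent of the mutant, although its text also calls control lines parental. No label says whether libraries of a line came from separate cultures, so p-values measure the spread between these libraries, which may be technical.

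Cadherins are calcium-dependent adhesion molecules that join a cell to its neighbours, and their cytoplasmic tails bind catenins. In an epithelial to mesenchymal transition, factors of the Snail, Twist and Zeb families repress Cdh1 and Epcam, and cells gain Cdh2 and vimentin. Such a shift takes place when the embryo forms mesoderm at gastrulation. Mouse ES cells grow as compact colonies held together by Cdh1.

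Snail and Zeb proteins are known to bind the E-box letters CACCTG, or CAGGTG on the opposite strand. Both were searched in the 250 bases before each start site in RefSeq promoters of GRCm38.p6, on either strand, and 17.2% of all 32851 promoters held at least 1. The table held 5 of the 10 genes, with 8 start sites, and the motif was in 2 of these 8, that of Epcam and that of Snai1. Neither motif was found before the starts of Vim, Twist1 or the 4 starts of Zeb2. Cdh1, Cdh2, Cdh3, Snai2 and Zeb1 had no entry. The 2 matching promoters are printed because Epcam and Snai1 carried the largest increases among the 10 genes in Mta123KO cells, one under each culture label. Capitals mark the motif. Epcam held it 187 and 19 bases before the start and Snai1 126 bases before the start. A match describes letters, not a bound site.
Epcam, chr17:87635729-87635978, + strand: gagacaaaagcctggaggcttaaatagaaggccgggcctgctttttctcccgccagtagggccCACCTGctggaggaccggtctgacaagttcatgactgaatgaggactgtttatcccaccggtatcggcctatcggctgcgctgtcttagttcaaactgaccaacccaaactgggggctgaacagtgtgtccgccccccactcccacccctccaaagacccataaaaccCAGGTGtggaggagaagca
Snai1, chr2:167537945-167538194, + strand: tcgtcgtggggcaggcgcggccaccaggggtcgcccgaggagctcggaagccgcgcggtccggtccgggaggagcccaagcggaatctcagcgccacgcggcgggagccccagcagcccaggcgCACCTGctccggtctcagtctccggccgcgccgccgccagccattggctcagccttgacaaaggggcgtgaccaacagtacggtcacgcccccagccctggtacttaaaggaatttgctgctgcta

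Before the results, the culture labels of the first set need a caution. The deposited files of these 16 libraries are named for the opposite culture from their sample labels. In control cells, markers of naive pluripotency were higher in the libraries labelled 48h, Nanog at a mean of 933 CPM (gene counts scaled to a common library size) against 67.5 in those labelled 2iL, and Klf4 at 137 against 4.67. Markers of the later, formative epiblast were higher in the libraries labelled 2iL, Pou3f1 at 73.1 CPM against 1.45 and Dnmt3b at 882 against 76.3. Cells released from 2iL are known to do the reverse, so these markers go against the labels. No library of the set is free of this doubt. The labels are followed here and named as labels, and exchanging them would turn the sign of each change with culture and of the interaction and would swap the 2 comparisons of Mta123KO with control.

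Under each label, the targeted genes were lower in the mutant libraries than in their controls. Mta2 was at 4.71 to 10.4 CPM in Mta123KO and at 111 to 201 CPM in control libraries, and it was at 9.23 to 11.9 CPM in Mta2_KO against 231 to 247 in Mta2_WT. Mta3 was at 9.65 to 12.8 CPM in Mta3_del/del against 60.6 to 70.4 in its parent. Mta1 RNA stayed at 38.5 to 48.0 CPM in Mta1_del/del against 69.0 to 105 in its parent, and at 15.5 to 30.0 CPM in Mta123KO against 23.4 to 48.6 in control. Depth was 37855790 to 57602285 gene counts per library in the first set and 13105820 to 40613585 in the second. Pou5f1 and the other ES cell markers were present in all groups, with summed levels of 593 to 4459 CPM.

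Per kb of exon, Cdh1, Epcam and Vim were the most abundant of the 10 genes in the first set. In control cells labelled 2iL, Epcam averaged 70.3 and Cdh1 61.2 CPM per kb, followed by Vim at 26.0 and Cdh3 at 4.12. Cdh2 averaged 1.12 CPM per kb there, so E-cadherin RNA exceeded N-cadherin RNA in every group of both sets. Among the factors, Zeb1 was at 2.95 CPM per kb, Twist1 at 1.91, Zeb2 at 0.499, Snai1 at 0.347 and Snai2 at 0.232. In Mta123KO labelled 2iL, Snai1 at 1.71 and Twist1 at 1.64 were above Zeb1 at 1.40 CPM per kb. The counts behind the low genes were small, with 10 to 89 reads for Snai2 and 4 to 187 for Snai1 over all libraries.

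**Figure D1:**
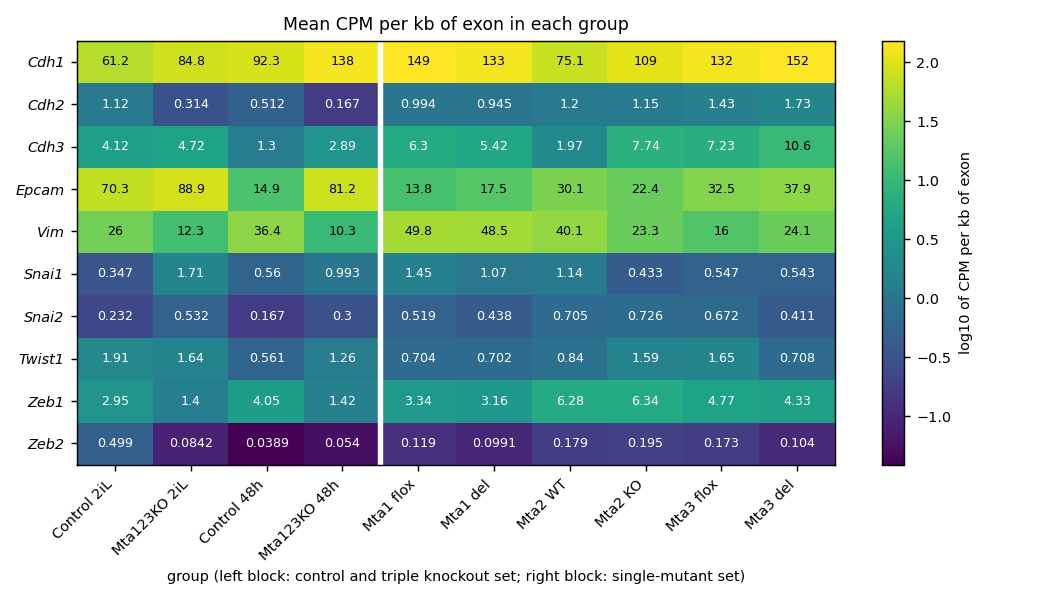
Mean CPM per kb of exon for each of the 10 genes (rows) in each of the 10 groups (columns), coloured on a log10 scale and written in each cell. Cdh1 is between 61.2 and 152 in all groups, and Zeb2 is at 0.0389 in control labelled 48h.

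In libraries labelled 2iL, Mta123KO cells had less Cdh2, Vim, Zeb1 and Zeb2 and more Snai1 and Snai2 than control cells, so that 6 of the 10 genes were called. A gene was called at an adjusted p under 0.05 (edgeR, Benjamini-Hochberg over 21651 genes) with a log2 fold change beyond 1 in either direction. All genes gave 20.6% called. The median log2 fold change was 0.01 for the 10 genes and 0.01 for all genes. All 10 passed the filter on low counts in each comparison of both sets. In the same libraries the summed level of 5 formative epiblast markers was 233 to 337 CPM in Mta123KO against 847 to 1407 in control. Of the 5, 4 were called lower and 1, Otx2, was called higher, at a mean of 32.45 against 16.3 CPM. Most of the sum was Dnmt3b, at a mean of 223 against 882 CPM. The part of these markers in the results was not tested.

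Cdh2, which encodes N-cadherin and lies at chr18:16588877-16809246 (GRCm38), was at 8.11, 7.62, 8.84 and 11.7 CPM in control labelled 2iL and at 2.33, 1.97, 3.11 and 2.73 CPM in Mta123KO. The groups did not overlap. The log2 fold change was -1.82 ± 0.19 (SE, n = 4 a group; adjusted p = 8.16e-05). Vim, the intermediate filament vimentin of mesenchymal cells (chr2:13573927-13582826), was at 104, 96.3, 144 and 150 CPM in control and at 61.9, 48.5, 60.5 and 61.7 CPM in Mta123KO. All control libraries lay above all mutant libraries, although the 2 control lines stood apart. The log2 fold change was -1.07 ± 0.16 (adjusted p = 5.43e-04), and it was -0.9996 for Mta123KO line 2 alone, just short of the limit.

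Zeb1 and Zeb2 encode zinc finger repressors of Cdh1. Zeb2 (chr2:44983632-45117395) showed the largest decrease of the 10 genes, from 8.31, 9.22, 9.98 and 12.3 CPM in control to 1.72, 2.24, 0.947 and 1.81 CPM in Mta123KO. The mean was 5.93 times lower, with a log2 fold change of -2.55 ± 0.25 (adjusted p = 5.76e-05). Zeb1 (chr18:5591860-5775467) was at 27.6, 30.3, 30.0 and 33.2 CPM in control and at 11.99, 11.6, 15.3 and 18.4 CPM in Mta123KO. It had no overlap between genotypes either, with a log2 fold change of -1.06 ± 0.15 (adjusted p = 4.00e-04). For Mta123KO line 2 alone it was -0.83 and without replicate 1_2 it was -0.97, past the p threshold only.

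Snai1, the zinc finger factor that represses Cdh1 at gastrulation (chr2:167538195-167542814), went the other way. It was at 0.439, 0.353, 0.662 and 0.798 CPM in control and at 3.29, 4.24, 1.94 and 1.59 CPM in Mta123KO. Every mutant library was above every control library, and line 1 of the mutant was the higher line. The log2 fold change was 2.31 ± 0.38 (adjusted p = 9.71e-04). It kept its size with the libraries of each line summed, but with an adjusted p of 0.0509. Snai2, known as Slug (chr16:14705852-14709385), was at 0.439, 0.582, 0.435 and 0.421 CPM in control and at 1.89, 1.18, 0.631 and 0.603 CPM in Mta123KO. Its log2 fold change of 1.21 ± 0.38 (adjusted p = 0.0258) rested on line 1. It was 0.41 for line 2 alone (adjusted p = 0.261), 0.76 without replicate 1_1, 1.29 without 1_2 (adjusted p = 0.0753) and 1.21 with lines summed (adjusted p = 0.172).

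The remaining 4 genes were not called under the 2iL label. Cdh1, or E-cadherin (chr8:106603351-106670246), was at 273, 269, 297 and 280 CPM in control and at 430, 431, 358 and 333 CPM in Mta123KO, without overlap. Its log2 fold change of 0.49 ± 0.09 passed the p threshold (adjusted p = 0.00223) but not the fold limit. Epcam (chr17:87635979-87651129) was at 141 to 163 CPM in control and at 176 to 207 CPM in Mta123KO, a log2 fold change of 0.36 ± 0.07 (adjusted p = 0.00329). Cdh3, or P-cadherin, which lies beside Cdh1 at chr8:106510891-106557297, split by line: the mutant libraries were at 28.6 and 29.1 CPM in line 1 and at 12.7 and 12.3 CPM in line 2, on either side of the control libraries at 17.4 to 18.8 CPM. Twist1, a bHLH factor of early mesoderm and neural crest (chr12:33957671-33959829), was at 2.48 to 4.04 CPM in control and 2.09 to 3.40 CPM in Mta123KO.

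**Figure D2:**
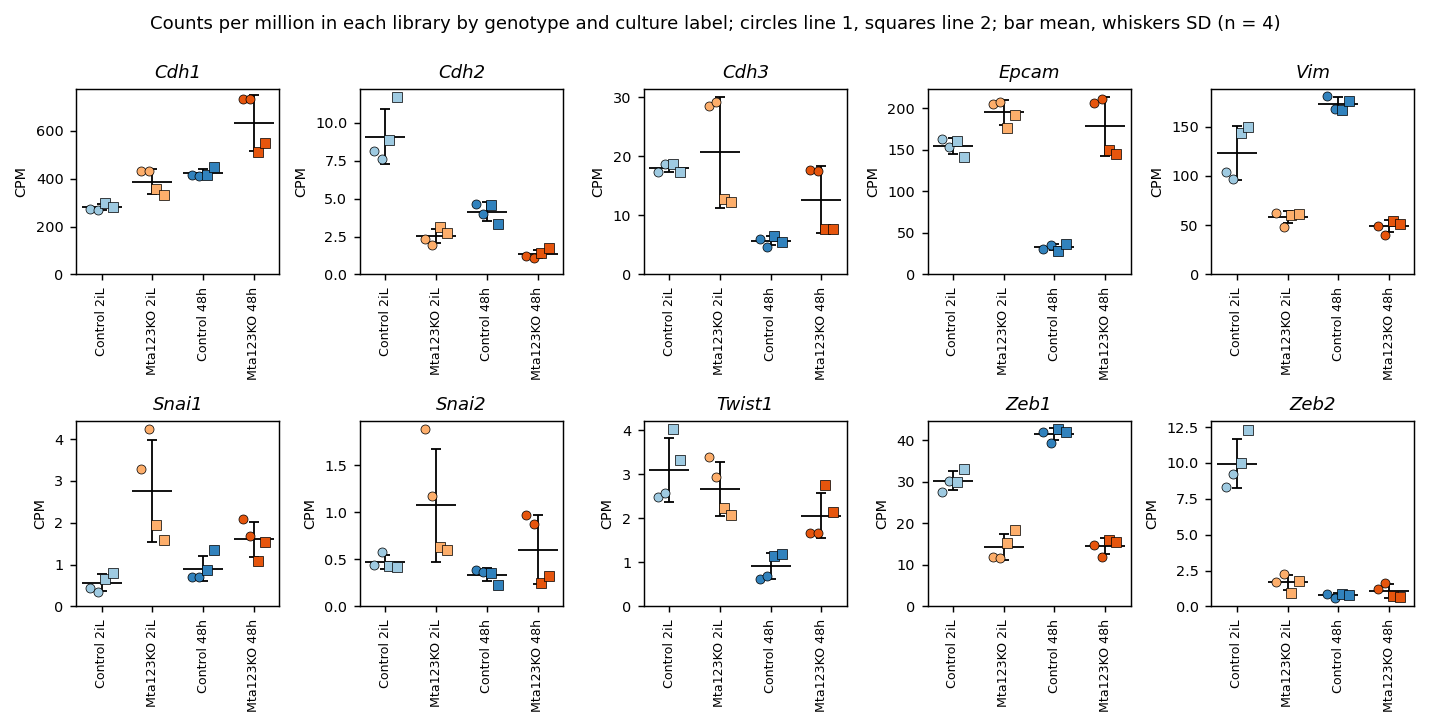
CPM (linear axis from 0) of each gene in the 16 libraries of the first set, with circles for line 1, squares for line 2, a bar at the group mean and whiskers of 1 SD (n = 4). Epcam is low in the control libraries labelled 48h alone, at 28.4 to 36.2 CPM, and Zeb2 is high in the control libraries labelled 2iL alone, at 8.31 to 12.3 CPM.

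Under the 48h label, Mta123KO cells had more Epcam, Cdh3 and Twist1 and less Cdh2, Vim and Zeb1 than control cells, again 6 of 10 genes called, where all genes gave 20.0%. The median log2 fold change was 0.71 for the 10 genes and 0.01 for all 21079 genes tested.

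Epcam showed the largest difference. It was at 30.7, 35.2, 28.4 and 36.2 CPM in control and at 206, 212, 150 and 146 CPM in Mta123KO. No mutant library came near the control range, and the mean was 5.47 times higher, with a log2 fold change of 2.46 ± 0.15 (n = 4 a group; adjusted p = 5.06e-06). Line 1 of the mutant was above line 2 by 0.51 ± 0.05 on the log2 scale (adjusted p = 3.67e-05, n = 2 a line).

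Cdh3 was at 6.06, 4.73, 6.46 and 5.57 CPM in control and at 17.8, 17.5, 7.77 and 7.66 CPM in Mta123KO. The groups did not overlap, but most of the difference came from line 1. The log2 fold change was 1.16 ± 0.30 (adjusted p = 0.0107). It was 0.44 for line 2 alone, 0.98 and 0.88 without replicates 1_1 and 1_2, 1.13 with lines summed (adjusted p = 0.120) and 0.96 with spike-in scaling, so the call was lost in each. Twist1 was at 0.635, 0.683, 1.15 and 1.19 CPM in control and at 1.66, 1.67, 2.75 and 2.15 CPM in Mta123KO, a log2 fold change of 1.18 ± 0.28 (adjusted p = 0.00630). That call was lost with lines summed (1.16, adjusted p = 0.107), with spike-in scaling (0.99) and for Mta123KO line 1 alone (0.88).

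The decreases under the 48h label were held by both lines. Vim was at 181, 168, 166 and 176 CPM in control and at 49.4, 40.2, 54.2 and 51.2 CPM in Mta123KO, a log2 fold change of -1.82 ± 0.09 (adjusted p = 2.20e-06). Zeb1 was at 42.0, 39.3, 42.8 and 42.0 CPM in control and at 14.9, 11.8, 16.04 and 15.5 CPM in Mta123KO, a log2 fold change of -1.50 ± 0.10 (adjusted p = 7.06e-06). Cdh2 was at 4.65, 3.97, 4.597 and 3.31 CPM in control and at 1.20, 1.06, 1.41 and 1.73 CPM in Mta123KO, a log2 fold change of -1.60 ± 0.20 (adjusted p = 1.90e-04). None of these 3 genes overlapped between genotypes, and none lost its call under any alternative run for this label.

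Cdh1 was at 412 to 449 CPM in control and 512 to 734 CPM in Mta123KO, a log2 fold change of 0.59 ± 0.12 (adjusted p = 0.00359) that stayed under the fold limit. Snai1 was at 0.705, 0.709, 0.862 and 1.35 CPM in control and at 2.102, 1.69, 1.09 and 1.55 CPM in Mta123KO, and the groups overlapped. Its log2 fold change was 0.84 ± 0.28 (adjusted p = 0.0334). Snai2 and Zeb2 overlapped between genotypes as well, with log2 fold changes of 0.84 ± 0.46 (adjusted p = 0.157) and 0.47 ± 0.32 (adjusted p = 0.250). For Mta123KO line 1 alone, Snai2 (1.45, adjusted p = 0.00318) and Snai1 (1.08, adjusted p = 0.0117) were called, and Snai1 was called without replicate 2_2 (1.11, adjusted p = 0.0211).

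**Figure D3:**
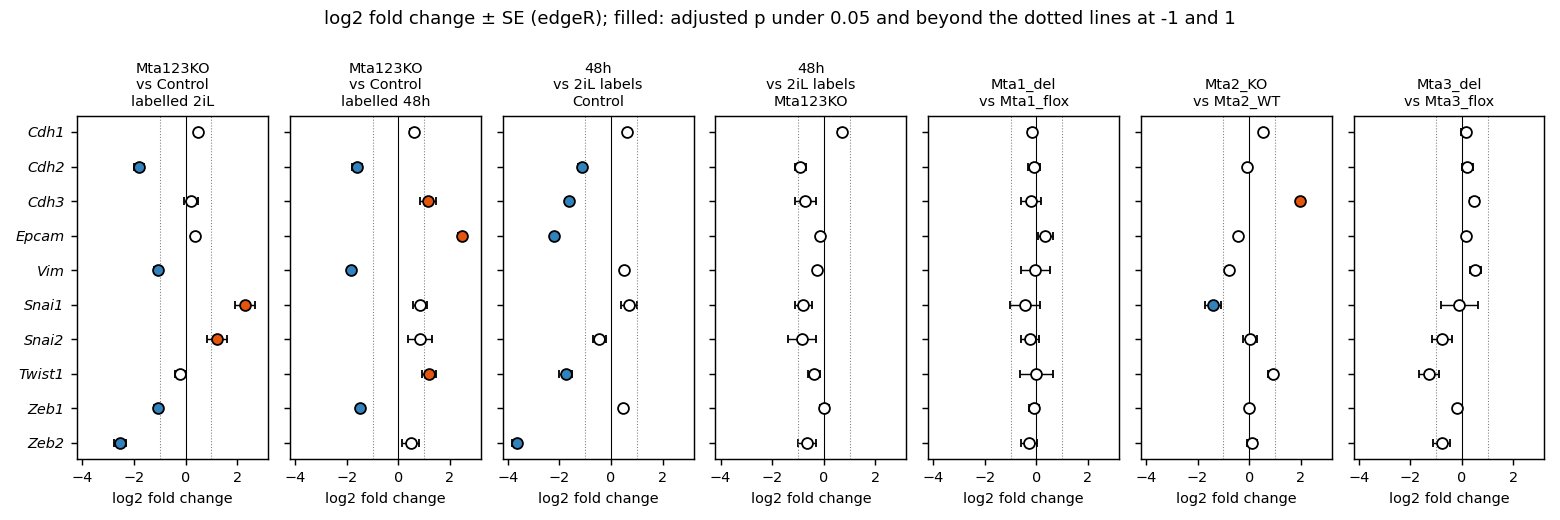
Log2 fold change with its SE (horizontal axis) of each gene in the 7 two-group comparisons, with filled points for called genes, orange higher and blue lower, and dotted lines at -1 and 1. Cdh2, Vim and Zeb1 are filled blue in both comparisons of Mta123KO with control, and no point is filled for the change with culture label in Mta123KO or for the Mta1 and Mta3 mutants.

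Between culture labels, 5 of the 10 genes were called in control cells, all lower in the libraries labelled 48h, where all genes gave 23.6%. The median log2 change (48h minus 2iL) was -0.79 for the 10 genes and 0.01 for all 21240 genes. Zeb2 changed most, from a mean of 9.96 to 0.776 CPM, a log2 change of -3.65 ± 0.17 (n = 4 a group; adjusted p = 2.71e-08). Epcam went from 154 to 32.6 CPM, a log2 change of -2.23 ± 0.09 (adjusted p = 6.83e-09). Twist1 went from 3.10 to 0.914 CPM (-1.75 ± 0.25, adjusted p = 1.15e-04) and Cdh3 from 18.1 to 5.71 CPM (-1.65 ± 0.10, adjusted p = 1.63e-07).

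Cdh2 went from 9.06 to 4.13 CPM in the same comparison, a log2 change of -1.12 ± 0.16 (adjusted p = 1.14e-04), which was -0.84 in line 1 alone, -0.88 without replicate 2_2 and -0.92 with spike-in scaling. Cdh1, Zeb1 and Vim had the opposite sign, with log2 changes of 0.61 ± 0.05, 0.47 ± 0.06 and 0.50 ± 0.13, past the p threshold and under the fold limit. Snai1 and Snai2 did not pass, at 0.70 ± 0.32 (adjusted p = 0.0782) and -0.46 ± 0.26 (adjusted p = 0.151). With the replicate block, Snai1 passed the p threshold (0.70, adjusted p = 0.0184) and stayed under the fold limit. With the labels exchanged, Epcam, Cdh3, Cdh2, Twist1 and Zeb2 would be the genes that were higher at 48 hours. By RT-qPCR over a neural differentiation time course, the study reported that Cdh2 was activated in control cells. In its NuRD mutants this was weaker or missing. Spike-in scaling moved the median log2 change of all genes from 0.01 to 0.18 in this comparison of control libraries, and in the comparison of genotypes labelled 48h from 0.01 to -0.18. The split of higher and lower calls moved with it, from 2210 and 2805 to 2799 and 2502 genes here, and from 2969 and 1249 to 2611 and 1784 there.

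In Mta123KO cells, 0 of the 10 genes were called between culture labels, where all genes gave 9.46%. The median log2 change was -0.51 for the 10 genes and 0.00 for all 21505 genes. Cdh1 (0.70 ± 0.15, adjusted p = 0.0109) and Cdh2 (-0.91 ± 0.22, adjusted p = 0.0177) passed the p threshold alone. Epcam had a mean of 195 CPM under the 2iL label and 178 CPM under the 48h label, with overlapping libraries and a log2 change of -0.13 ± 0.14 (adjusted p = 0.534). Zeb2 was at 1.68 and 1.08 CPM, a log2 change of -0.65 ± 0.36 (adjusted p = 0.242), and Zeb1 at 14.3 and 14.6 CPM.

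Libraries with the same number came from the same line in this comparison, and blocking on replicate number put 7 of the 10 genes past the p threshold. Of all 21505 genes, 9144 passed it in that fit. With that replicate block, Cdh1 and Cdh2 passed again, Cdh3 had a log2 change of -0.71 (adjusted p = 1.41e-04), Vim -0.26 (adjusted p = 0.00651), Snai1 -0.72 (adjusted p = 0.0289), Snai2 -0.86 (adjusted p = 0.0176) and Zeb2 -0.68 (adjusted p = 0.0389). No gene of the 10 exceeded the fold limit in that fit. Line 2 alone gave log2 changes of -1.10 for Snai2 (adjusted p = 0.0389) and -1.02 for Zeb2 (adjusted p = 0.0298), both past the limits, and without replicate 2_2 Cdh2 was at -1.02 (adjusted p = 0.0451). With the libraries of each line summed, edgeR called 0 of 24445 genes, although 3568 had an unadjusted p under 0.05.

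The change with culture label differed between the genotypes for 4 of the 10 genes by the interaction term, where all 22973 genes gave 13.0%. The interaction is the log2 change in Mta123KO minus that in control. It was 3.02 ± 0.41 for Zeb2 (adjusted p = 8.96e-05) and 2.11 ± 0.17 for Epcam (adjusted p = 7.40e-07), whose large drops from 2iL to 48h labels in control were much smaller in Mta123KO. Twist1 followed with 1.39 ± 0.36 (adjusted p = 0.0106), and was no longer called with lines summed (adjusted p = 0.232), spike-in scaling (1.15, adjusted p = 0.0686) or without replicates 2_1 (1.13, adjusted p = 0.0672) or 2_2 (1.39, adjusted p = 0.05003).

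Snai1 had an interaction of the opposite sign, -1.47 ± 0.49 (adjusted p = 0.0396), which was -1.46 with the replicate block (adjusted p = 0.0573). It also lost its call with lines summed (adjusted p = 0.319) and without replicate 1_1 (-1.53, adjusted p = 0.119), 1_2 (-1.14, adjusted p = 0.183) or 2_1 (-1.57, adjusted p = 0.0897). Vim had an interaction of -0.74 ± 0.19 (adjusted p = 0.0103), under the fold limit. The other 5 genes did not pass, with Cdh1 at 0.11 ± 0.16 (adjusted p = 0.677), Cdh2 at 0.23 ± 0.27 (adjusted p = 0.605) and Cdh3 at 0.95 ± 0.44 (adjusted p = 0.141). In the same fit, 3 of 5 formative epiblast markers were called higher and 0 lower (median 2.07). Of 7 ES cell markers, 0 were called higher and 3 lower (median -1.24). Of all genes, 7.66% were called higher and 5.37% lower. The part of these markers in the interaction was not tested.

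Over the 4 groups, Epcam and Snai2 shared an order of levels, as did Twist1 and Zeb2, and the other genes differed in theirs. Cdh2 was highest in control 2iL, followed by control 48h, Mta123KO 2iL and Mta123KO 48h, with no overlap between neighbours. Vim and Zeb1 were highest in control 48h, then control 2iL, and the Mta123KO groups came last and overlapped each other. Epcam had Mta123KO 2iL, Mta123KO 48h and control 2iL at the top, each overlapping the next, and control 48h apart below them. Zeb2 had control 2iL apart at the top and the other groups overlapping in turn, and Cdh1 had Mta123KO 48h apart at the top and control 2iL apart at the bottom. All neighbours in the order of Snai1 overlapped.

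The 2 Mta123KO lines differed from each other in several of the genes. Under the 2iL label 3 of 10 genes were called between line 1 and line 2, against 13.1% of all genes, with Cdh3 higher in line 1 by 1.18 ± 0.08 on the log2 scale, Snai1 by 1.07 ± 0.20 and Snai2 by 1.29 ± 0.31 (adjusted p = 6.56e-07, 0.00150 and 0.00603; n = 2 a line). Under the 48h label 3 of 10 were called, against 11.5%, with Cdh3 higher by 1.20 ± 0.09, Snai2 by 1.67 ± 0.35 and Zeb2 by 1.08 ± 0.27 (adjusted p = 3.79e-06, 0.00334 and 0.00962). Markers of trophectoderm, the outer epithelium of the blastocyst, moved with these lines. Their summed level over 7 genes, led by the keratins Krt8 and Krt18, was 337 and 375 CPM in line 1 and 69.4 and 73.5 CPM in line 2 under the 2iL label, and 676 and 716 against 139 and 145 CPM under the 48h label. Control libraries had 15.7 to 20.8 CPM, and none of the 7 markers was at 0 in every library of a group. Their part in the results was not tested, and in such bulk samples a change in the share of cells and a change in RNA per cell cannot be told apart.

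Other genes of epithelial junctions and of the epithelial programme were called higher in Mta123KO and none was called lower. Of 27 tested from a list of 28, 18 rose under the 2iL label and 16 under the 48h label, with median log2 fold changes of 1.13 and 1.49, against 0.01 for all genes under both. Of all genes tested, 13.2% rose and 7.43% fell under the 2iL label, and 14.1% rose and 5.93% fell under the 48h label. The desmosomal plaque gene Dsp was at a mean of 25.7 against 2.83 CPM under the 2iL label (log2 fold change 3.197 ± 0.61, adjusted p = 0.00220). The tight junction gene Cldn6 was at 85.5 against 2.28 CPM under the 48h label (5.24 ± 0.25, adjusted p = 1.98e-06). Of the 7 trophectoderm markers, 7 rose under the 2iL label and 5 under the 48h label in the same libraries. The summed level of 7 primitive endoderm markers was 18.7 to 21.7 CPM in Mta123KO against 4.65 to 5.76 in control under the 48h label. Under the 2iL label it was 16.8 to 28.2 against 8.87 to 22.6 CPM. These markers split, with 2 of 6 tested called higher and 1 lower under the 48h label, and 2 of 7 higher and 2 lower under the 2iL label. The part of trophectoderm or primitive endoderm markers in these counts was not tested.

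The mesenchymal list did not go one way with Vim and Cdh2. Of 20 genes tested under the 2iL label, 7 rose and 2 fell in Mta123KO, and of 21 under the 48h label 8 rose and 0 fell, beside the shares of all genes given above. Tagln, an actin-binding protein of smooth muscle, was at 24.3 against 1.79 CPM under the 2iL label (log2 fold change 3.78 ± 0.60, adjusted p = 8.31e-04), and the secreted ligand Tgfb2 at 3.10 against 0.218 CPM (3.83 ± 0.58, adjusted p = 6.21e-04). Under the 48h label the matrix metalloprotease Mmp2 was at 14.1 against 2.05 CPM (2.80 ± 0.18, adjusted p = 6.54e-06). Those that fell under the 2iL label were the adhesion molecule Ncam1 (-1.07 ± 0.16) and the muscle filament gene Des (-1.05 ± 0.13). The summed level of 12 fibroblast markers was 24.7 to 27.2 CPM in Mta123KO against 12.1 to 15.2 in control under the 2iL label and 17.5 to 27.7 against 6.52 to 7.54 under the 48h label. Of these markers, Dcn was at 0 in every control library labelled 48h, and their part in these counts was not tested.

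Among 20 other cadherins, 3 of 10 tested rose and 1 fell in Mta123KO labelled 2iL, and 5 of 6 rose under the 48h label. Of all genes, 13.2% rose and 7.43% fell under the 2iL label, and 14.1% rose and 5.93% fell under the 48h label. The filter on low counts also kept genes with enough reads in either group alone, so these counts depend on which cadherins it kept. Cdh4, or R-cadherin, was at 23.9 against 6.19 CPM under the 2iL label and at 48.7 against 6.73 CPM under the 48h label (log2 fold changes 1.96 ± 0.13 and 2.86 ± 0.26, adjusted p = 8.53e-06 and 3.97e-05). It therefore moved against Cdh2 in both comparisons. Cdh10 was lower under the 2iL label, at 0.289 against 3.80 CPM (-3.70 ± 0.22, adjusted p = 5.97e-06). Of 11 catenin and adaptor genes, 1 was higher and 1 lower under each label, a share close to that of all genes. Nectin3, an adhesion molecule of adherens junctions, was lower under both labels (-1.52 ± 0.18 and -1.37 ± 0.11, adjusted p = 1.83e-04 and 2.33e-05).

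In control cells, between culture labels, the epithelial list split, with 8 of 26 genes higher and 6 lower in libraries labelled 48h, where of all genes 10.4% were higher and 13.2% lower. The desmosomal cadherin Dsg2 was at 59.9 against 5.66 CPM (log2 change 3.42 ± 0.14, adjusted p = 9.16e-09). The splicing regulator Esrp1 and the transcription factor Grhl2, both known for epithelial cells, went down, like Epcam, at 0.962 against 13.4 CPM (-3.76 ± 0.24, adjusted p = 2.20e-07) and 2.34 against 26.6 CPM (-3.48 ± 0.18, adjusted p = 4.58e-08). In Mta123KO, where 4.84% of all genes rose and 4.62% fell, 3 of 28 rose and 1 fell, Grhl2 from 45.4 to 19.5 CPM (-1.22 ± 0.23, adjusted p = 0.00624).

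**Figure D4:**
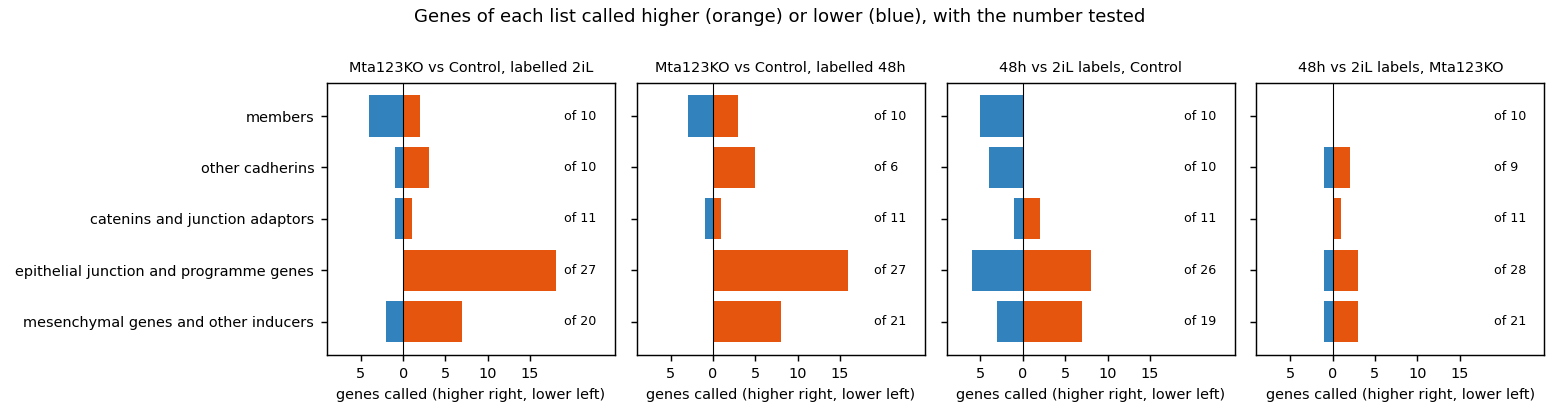
Number of genes of each list called higher (orange, right of 0) or lower (blue, left of 0) in 4 comparisons of the first set, with the number tested at the right. The epithelial list has 18 and 16 genes higher and 0 lower in the comparisons of Mta123KO with control.

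Across the 16 libraries, the genes whose log2 CPM followed each member most closely had Pearson correlations of 0.929 to 0.992, given as a description, since the libraries share 4 groups. Among genes with a mean of at least 5 CPM, Pxdn (0.992) and Lrp2 (0.990) were most like Epcam. Nhs (0.985) and Dtx4 (0.976) were most like Zeb2, Efnb2 (0.978) and Vamp3 (0.969) most like Cdh3, and Atad2 (0.984) and Kat2a (0.981) most like Zeb1. Slc5a6 (0.990) followed Cdh1, Kpna3 (0.982) Cdh2, Prdx2 (0.969) Vim and Prph (0.946) Twist1. No gene of the 10 was among the closest 2 of another. Cdh2, Snai1, Snai2, Twist1 and Zeb2 averaged under 5 CPM, however, and so could not have been.

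Single loss of Mta1 left the 10 genes within the spread of the libraries. Of 10 genes 0 were called, as of all 14561 genes tested (0.00%), and the log2 fold changes ran from -0.45 ± 0.60 for Snai1 to 0.34 ± 0.29 for Epcam. By edgeR 50 genes had an unadjusted p under 0.05 and by DESeq2 88 genes did, with 0 called by either. With the replicate block, which pairs libraries that did correlate here, 468 genes had an unadjusted p under 0.05 and 0 were called. The spread was wide. Vim was at 429, 90.9 and 189 CPM in Mta1_flox/flox and at 360, 174 and 156 CPM in Mta1_del/del, and Cdh3 at 40.0, 12.5 and 30.4 against 19.8, 29.6 and 21.8 CPM. Both groups overlapped for all 10 genes, and an adjusted p near 1 does not show that levels were equal.

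In Mta2_KO, Cdh3 was higher and Snai1 lower than in Mta2_WT, 2 of 10 genes called, where all genes gave 11.3%. The median log2 fold change was 0.02 for the 10 genes and 0.00 for all 15602 genes. Cdh3 was at 8.57, 9.33 and 7.96 CPM in Mta2_WT and at 35.5, 33.5 and 32.7 CPM in Mta2_KO. The groups lay far apart, and the mean was 3.93 times higher, a log2 fold change of 1.97 ± 0.08 (n = 3 a group; adjusted p = 8.88e-08). Snai1 was at 2.68, 1.59 and 1.31 CPM in Mta2_WT and at 0.761, 0.672 and 0.671 CPM in Mta2_KO, a log2 fold change of -1.40 ± 0.30 (adjusted p = 0.00421). That call was lost in one fit of all 18 libraries (adjusted p = 0.150).

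A further 4 genes passed the p threshold in the Mta2 mutant and stayed under the fold limit, each without overlap. That threshold alone was passed by 7460 of all 15602 genes. Cdh1 was at 334, 403 and 294 CPM in Mta2_WT and at 525, 459 and 514 CPM in Mta2_KO (log2 fold change 0.53 ± 0.11, adjusted p = 0.00308). Vim was at 190, 187 and 193 against 114, 111 and 107 CPM (-0.79 ± 0.04, adjusted p = 5.99e-07). Epcam was at 63.5 to 68.5 against 44.7 to 53.6 CPM (-0.44 ± 0.07, adjusted p = 5.82e-04) and Twist1 at 1.24 to 1.48 against 2.52 to 2.69 CPM (0.91 ± 0.16, adjusted p = 0.00123). Cdh2, Snai2, Zeb1 and Zeb2 overlapped, with log2 fold changes between -0.07 and 0.13. Of the epithelial list 7 of 27 genes rose and 2 fell, with Esrp1 at 5.28 against 0.575 CPM (3.19 ± 0.16, adjusted p = 3.78e-07) and the protease inhibitor Spint1 at 45.9 against 114 CPM (-1.32 ± 0.05, adjusted p = 3.75e-08). Of the mesenchymal list 4 of 22 fell and 0 rose. Of all genes 5.31% rose and 6.04% fell.

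Beside these values, trophectoderm markers were lower in the Mta2 mutant, with summed levels of 19.2 to 26.1 CPM against 54.5 to 63.7 CPM in Mta2_WT. Other summed levels were lower too. Mesoderm markers were at 16.1 to 17.0 against 25.3 to 29.4 CPM and formative markers at 89.8 to 92.3 against 128 to 135. ES cell markers were at 3099 to 3298 against 3809 to 3974 CPM. Of 5 formative markers, however, 1 was called higher and 1 lower. Fibroblast and primitive endoderm sums overlapped. The part of these markers in the result was not tested.

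After loss of Mta3, 0 of 10 genes were called, where all genes gave 6.06%. The median log2 fold change was 0.02 for the 10 genes and -0.01 for all 15522 genes. Twist1 came nearest, at 1.63, 3.45 and 3.003 CPM in Mta3_flox/flox and 0.993, 1.59 and 0.873 CPM in Mta3_del/del, just without overlap. Its log2 fold change was -1.29 ± 0.39 (n = 3 a group; adjusted p = 0.0553), and DESeq2 called it (-1.26, adjusted p = 0.0316), as did the fit without a filter on low counts (-1.25, adjusted p = 0.0494). Cdh3 was at 27.6, 39.7 and 27.7 CPM in the parent and at 50.1, 39.8 and 49.0 CPM in the mutant (0.48 ± 0.17, adjusted p = 0.0836). Snai1 counts were as low as 4 reads in a mutant library.

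The Mta3 parent held more fibroblast marker RNA, with a summed level of 12 markers of 24.3, 39.8 and 74.3 CPM against 10.6, 18.4 and 12.6 CPM in Mta3_del/del, and no marker at 0 in every library of either group. Col3a1, a fibrillar collagen, was at a mean of 7.40 CPM in the parent and 0.107 CPM in the mutant (adjusted p = 0.0338). Their part in the values of Twist1 was not tested. The 941 genes called for Mta3 fell to 2 without replicate 1 and to 2 without replicate 3, and were 1343 without replicate 2.

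**Figure D5:**
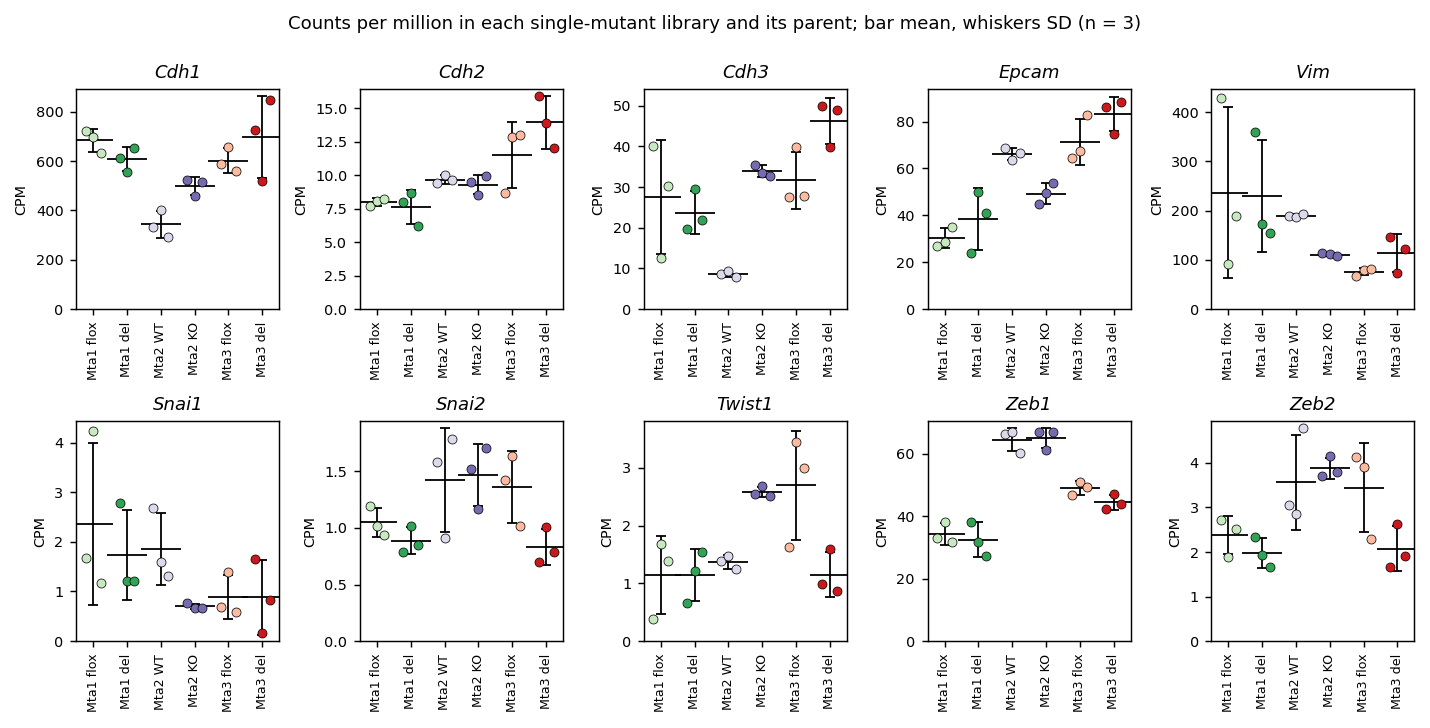
CPM (linear axis from 0) of each gene in the 18 libraries of the second set, with a bar at the group mean and whiskers of 1 SD (n = 3). Cdh3 separates Mta2_KO, at 32.7 to 35.5 CPM, from Mta2_WT, at 7.96 to 9.33 CPM, while both Mta1 groups overlap for each gene.

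The single mutants, labelled 2i+LIF, had group means of Nanog of 1086 to 1604 CPM, nearer to control labelled 48h than to control labelled 2iL, so their log2 fold changes are set beside those of Mta123KO under both labels. For Cdh2 they were -0.08, -0.07 and 0.21 after loss of Mta1, Mta2 and Mta3, and -1.82 (2iL) and -1.60 (48h) in Mta123KO. For Vim they were -0.04, -0.79 and 0.52, against -1.07 and -1.82. Zeb2 was at -0.28, 0.13 and -0.79, against -2.55 and 0.47. Of these values of Zeb2, that of Mta123KO labelled 2iL alone was called. Snai1 was at -0.45, -1.40 and -0.10, against 2.31 and 0.84. Cdh3 was at -0.21, 1.97 and 0.48, against 0.21 and 1.16. Twist1 was at -0.0027, 0.91 and -1.29, against -0.20 and 1.18. The sets were normalized apart and their libraries differ in depth, and the difference between single and triple mutants was not tested.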

How the data were processed

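RNA of 34 libraries was sequenced with strand-specific kits. The authors trimmed reads with Trim Galore, aligned them to GRCm38 with TopHat2, counted them per gene with featureCounts and deposited raw counts per gene and library, with a total of 13105820 to 40613585 or 37855790 to 57602285 by set, which limits precision for genes with few reads. The labels give a choice of 2 kits without saying which library used which. The members, the gene lists and the rule for named genes were chosen with earlier results of these data known.

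Symbols, coordinates and exon lengths came from a GRCm38 annotation, and promoters from RefSeq. Each comparison was fitted on its own libraries with edgeR 4.0.16 (filterByExpr, TMM, quasi-likelihood test), and the interaction on all 16. A call needed an adjusted p (Benjamini-Hochberg) below 0.05 together with a log2 fold change beyond 1 in either direction. Of each other list, at most 2 called genes a direction could be named, taking the largest changes among genes without overlap whose higher group averaged 1 CPM or more. The text names some of them. CPM values were computed within each set on TMM-scaled totals. Likeness used log2 CPM with a prior count of 2. On simulated counts, 84% of 200 genes changed 4-fold were recovered for Mta123KO labelled 2iL (21651 genes) and 85.5% for Mta3 (15522 genes).

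Replicate numbers were checked for pairing by correlating deviations from group means. Same-numbered libraries correlated at 0.272 to 0.337 between culture labels in control, where they share a line, at 0.552 to 0.586 in Mta123KO and at 0.435 to 0.700 in the Mta1 comparison. In the comparisons of genotypes they correlated at -0.255 to -0.035 under the 2iL label and at -0.103 to 0.031 under the 48h label, so these share only a number. The range was -0.186 to 0.311 for Mta2 and -0.128 to 0.343 for Mta3, which does not settle whether those libraries were paired. Alternatives were DESeq2 1.42.0, no filter, a replicate or line block, one fit of all libraries, spike-in scaling, single lines, summed lines and leaving out each replicate. Exchanged culture labels and the alternatives for the comparison of lines were chosen after seeing the data.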

Additional observations from a re-analysis of the deposited data

Results flagged for a closer look

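In 3 of 40 groups of 4 libraries, 1 library stood far from the other 3 by Dixon's test, which chance does in about 1 group in 20. They were Cdh1 at 449 CPM in control labelled 48h, Vim at 48.5 CPM in Mta123KO labelled 2iL and Snai2 at 0.582 CPM in control labelled 2iL.

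The log2 change between culture labels differed between genotypes by the interaction term for Zeb2 (3.02), Epcam (2.11), Twist1 (1.39) and Snai1 (-1.47). Those of Twist1 and Snai1 did not hold under all alternatives.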

How the results depend on the processing

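Over the alternatives that left out a replicate, 258 member fold changes kept direction and call, 11 lost and 2 gained a call and 19 changed sign. Over the other alternatives these numbers were 470, 18, 7 and 15. The cause was not tested.

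The members called between labels in control were 8 by adjusted p alone, which 12419 of all 21240 genes passed. In Mta123KO they were 2 by adjusted p alone, which 4817 of all 21505 genes passed. There they were 2 in line 2 alone, where 1494 of all 21828 genes were called higher and 1489 lower. They were 0 to 1 without a replicate, beside 1439 to 1633 of all genes. For Mta123KO against control labelled 2iL, 3 were called with Mta123KO line 2 alone, where 2743 of all 22593 genes were called higher and 1878 lower. For genotypes labelled 48h, 5 to 7 were called without a replicate, beside 3849 to 4267 of all genes. With lines summed 4 were called, beside 2168 higher and 823 lower of all 23899 genes. With spike-in scaling 4 were called, beside 2611 higher and 1784 lower of all 21079 genes. For the interaction, 2 were called with lines summed, beside 387 higher and 280 lower of all 25816 genes. Without a replicate 2 to 3 were called, beside 2019 to 2486 of all genes. For Mta2, 1 was called in one fit of all libraries, beside 604 higher and 656 lower of all 16271 genes. By adjusted p alone 6 were called, a threshold that 7460 of all 15602 genes passed. For Mta3, 1 was called by DESeq2, 1 with no filter and 1 with the replicate block, each time Twist1 (-1.26, adjusted p = 0.0472 in edgeR with the block). Of all 16060 genes tested by DESeq2, 183 were called higher and 960 lower. These numbers were 191 and 904 of 21483 with no filter, and 114 and 867 of 15522 with the replicate block. With the replicate block 3 members were called for the interaction, without Snai1 (-1.46), beside 1859 higher and 1272 lower of all 22973 genes. No other call of a member changed with that block. With lines summed, 2834 genes were called for genotypes labelled 2iL against 4470, 667 for the interaction against 2993 and 0 for culture labels in Mta123KO against 2035.

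These log2 fold changes, none called, changed sign. Between labels in Mta123KO, Epcam was 0.015 in line 1, and Twist1 was 0.16 and Zeb1 -0.11 in line 2. For genotypes labelled 2iL, Cdh3 was -0.52 with line 2 and Twist1 0.042 with line 1. For those labelled 48h, Snai2 was -0.21 and Zeb2 -0.16 with line 2. For Mta1, Twist1 was 0.0041 by DESeq2, 0.0088 with no filter, 0.099 with the replicate block and 0.021 in one fit of all, and Vim was 0.12 with the replicate block. For Mta2, Zeb1 was -0.012 with no filter. With spike-in scaling the interaction was -0.12 for Cdh1 and -0.00066 for Cdh2, and the median of all genes moved to -0.22.

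Leaving out a replicate gave these ranges. Between labels in Mta123KO, Zeb1 was -0.076 to 0.13. For genotypes labelled 2iL, Cdh3 was -0.0052 to 0.40 and Twist1 -0.44 to 0.026. For Mta1, Cdh2 was -0.17 to 0.065, Cdh3 -0.76 to 0.25, Snai1 -1.14 to 0.48, Twist1 -0.15 to 0.32, Vim -0.26 to 0.22 and Zeb1 -0.25 to 0.010. For Mta2, Cdh2 was -0.12 to 0.019, Snai2 -0.069 to 0.12, Zeb1 -0.059 to 0.073 and Zeb2 -0.067 to 0.40. For Mta3, Cdh1 was -0.056 to 0.38, Cdh2 -0.038 to 0.41 and Snai1 -1.09 to 0.92. For the interaction, Cdh2 was -0.12 to 0.39. Counts as low as 4 for Snai1 and 10 for Snai2 limit their precision.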
